A study of Arabidopsis thaliana with 18 samples.

Results

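Described here are 4 Arabidopsis thaliana genes, AT1G02360, AT5G44570, AT3G46280 and AT3G29240, each read by 1 probe set of the ATH1 array. They are 4 of the 22746 probe sets of the array once its control probe sets are set aside, and all 4 passed a filter on dim signals that 15922 probe sets passed. The gene table used here gives each only its locus name and the type protein coding. The genes were chosen from these data: on SA arrays 1, 2 and 3, with first title numbers 118 to 120, each signal lay over 2-fold above the highest signal of any silwet array.

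The 18 arrays held total RNA of the accession Van-0, from plants or plant parts that the labels used here do not specify further. One group of 9 arrays had been treated with 0.30 mM SA (salicylic acid) in 0.02% silwet, and the other 9 with 0.02% silwet alone, so the surfactant silwet was common to both. No label gives the age, the tissue, the time after treatment or how many plants went into a sample, and none says that samples came from separate plants, so a p-value here speaks of the scatter among arrays, some of which may be technical. Arrays are numbered 1 to 9 within a treatment by their first title number. Arrays 1 to 3, 4 to 6 and 7 to 9 are called title sets 1, 2 and 3, and each holds Rep numbers 1, 2 and 3 once per treatment. No label says what separates the title sets.

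Salicylic acid is a plant hormone that accumulates in tissue attacked by pathogens, and it switches on genes of defence through NPR proteins, which bind it, and TGA transcription factors. Among the proteins that plants make in such defence are chitinases, enzymes that cut chitin, a polymer of fungal cell walls that plants do not make. Many chitinases are secreted, and plant genomes hold them as gene families whose members differ in where and when they are made. AT1G02360 belongs to the chitinase-type genes. For AT5G44570, AT3G46280 and AT3G29240 no role is given here.

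Of the 15922 probe sets, 29 met the rule (0.182%), and 13 of these name a single gene. Ranked by the lowest of SA arrays 1 to 3 over the highest silwet signal, AT5G44570 was at 3.67, AT3G46280 at 2.87, AT1G02360 at 2.67 and AT3G29240 at 2.40. The named genes nearest to the limit on its inner side were AT1G67800 at 2.03 and AT4G31860 and AT3G60470 at 2.13. Just outside lay the UDP-glycosyltransferase gene UGT73B5 at 1.999, the chitinase gene AT3G47540 at 1.99 and AT5G38710 at 1.94. UGT76B1, a glycosyltransferase gene whose enzyme conjugates SA, headed the named genes at 7.21. These ratios chose the genes, so they carry no test, and neither do the differences in title set 1 or over all arrays given below.

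All signals are the deposited MAS5 intensities, whose trimmed mean was 100 on each array. Median signals lay between 23.3 and 36.6. Control probe sets read GAPDH at its 5' and its 3' end, and the 5' signal over the 3' signal, which falls as RNA is degraded, was between 0.767 and 1.26 on SA arrays and between 0.225 and 1.29 on silwet arrays, with silwet 7 (0.225) and silwet 4 (0.465) lowest. Of 5 leaf markers only RCA, the rubisco activase gene, had a probe set naming 1 gene, at 2312 to 4059 with SA and 1429 to 3755 with silwet. Of 4 root markers EXPA18 and EXPA7 were measured, and neither exceeded 25.5 on any array. In whole samples, fewer or more cells of a type and less or more RNA per cell cannot be told apart.

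AT1G02360, the chitinase-type gene, had higher signals on the 6 arrays of title set 1, in both treatments, than on any of the 12 others. Its signals in title set 1 were 194, 215 and 174 on SA arrays, against 65.3, 56.6 and 55.8 on silwet arrays. In title set 2 they were 14.7, 31.0 and 18.6 with SA, against 18.6, 25.1 and 16.9 with silwet. Title set 3 gave 18.8, 18.5 and 20.2 with SA, against 17.7, 19.5 and 16.7 with silwet. The treatments were apart in title set 1 and overlapped in title sets 2 and 3. On the log2(signal + 2) scale, on which all differences below are given, SA minus silwet was 1.68 ± 0.24 (SE, n = 3 each) in title set 1. SA arrays of title set 1 held 82.7% of the summed signal of the 9 SA arrays. The order of the 6 groups of 3 ran from SA set 1 (194 ± 20.4, SD) over silwet set 1 (59.2 ± 5.28) to the other 4 groups (18.0 to 21.4), and only these last 4 overlapped with their neighbours in the order.

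AT5G44570 was the gene with the widest SA difference in title set 1 and the only one of the 4 whose SA arrays also lay above the silwet arrays of title set 2. In title set 1 the signals were 998, 1206 and 969 with SA, against 207, 176 and 177 with silwet, a log2 difference of 2.49 ± 0.50 (SE). In title set 2 they were 292, 784 and 373 with SA, against 119, 264 and 218 with silwet. In title set 3 they were 107, 249 and 261 with SA, against 52.9, 249 and 201 with silwet. SA and silwet signals did not overlap in title sets 1 and 2, although the gap in title set 2 was narrow (292 on SA 4 against 264 on silwet 5), and they overlapped in title set 3. The silwet arrays of the 3 title sets overlapped with each other, at 186 ± 17.7, 200.2 ± 74.3 and 168 ± 102 (SD). SA set 2, at 483 ± 264 (SD), lay below SA set 1 and above SA set 3, at 206 ± 85.7 (SD), with no overlap on either side. The gap to SA set 3 was narrow (292 on SA 4 against 261 on SA 9).

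AT3G46280 had signals of at most 39.8 on the 15 arrays outside SA set 1. Its signals in title set 1 were 149, 102 and 80.6 with SA, against 26.9, 27.8 and 28.1 with silwet, a log2 difference of 1.88 ± 0.51 (SE). In title set 2 they were 5.47, 22.1 and 17.1 with SA, against 9.58, 14.7 and 14.03 with silwet. Title set 3 gave 10.7, 6.54 and 39.8 with SA, against 4.79, 4.27 and 11.1 with silwet. The treatments overlapped in both of these sets, and SA 9 stood highest outside SA set 1. Silwet set 1 was next after SA set 1 in the order of the groups, with 27.6 ± 0.638 (SD), but its range lay within that of SA set 3 (19.0 ± 18.1). Signals of this size are noisy in MAS5, and on the log2(signal + 2) scale their changes are understated.

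AT3G29240 was far above the array medians on every array, and SA set 1 alone lay apart from the other groups. Its signals in title set 1 were 2487, 3140 and 2658 with SA, against 1037, 955 and 982 with silwet, a log2 difference of 1.47 ± 0.29 (SE). In title set 2 they were 416, 904 and 723 with SA, against 628, 715 and 816 with silwet. In title set 3 they were 526.3, 525 and 1009 with SA, against 569.5, 635 and 1029 with silwet. Below SA set 1 the other 5 groups of 3 had means from 681 to 991 and each overlapped with its neighbour in the order. In pairs of equal Rep number, SA over silwet was 2.40 to 3.29 in title set 1, 0.663 to 1.26 in title set 2 and 0.826 to 0.981 in title set 3.

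**Figure D1:**
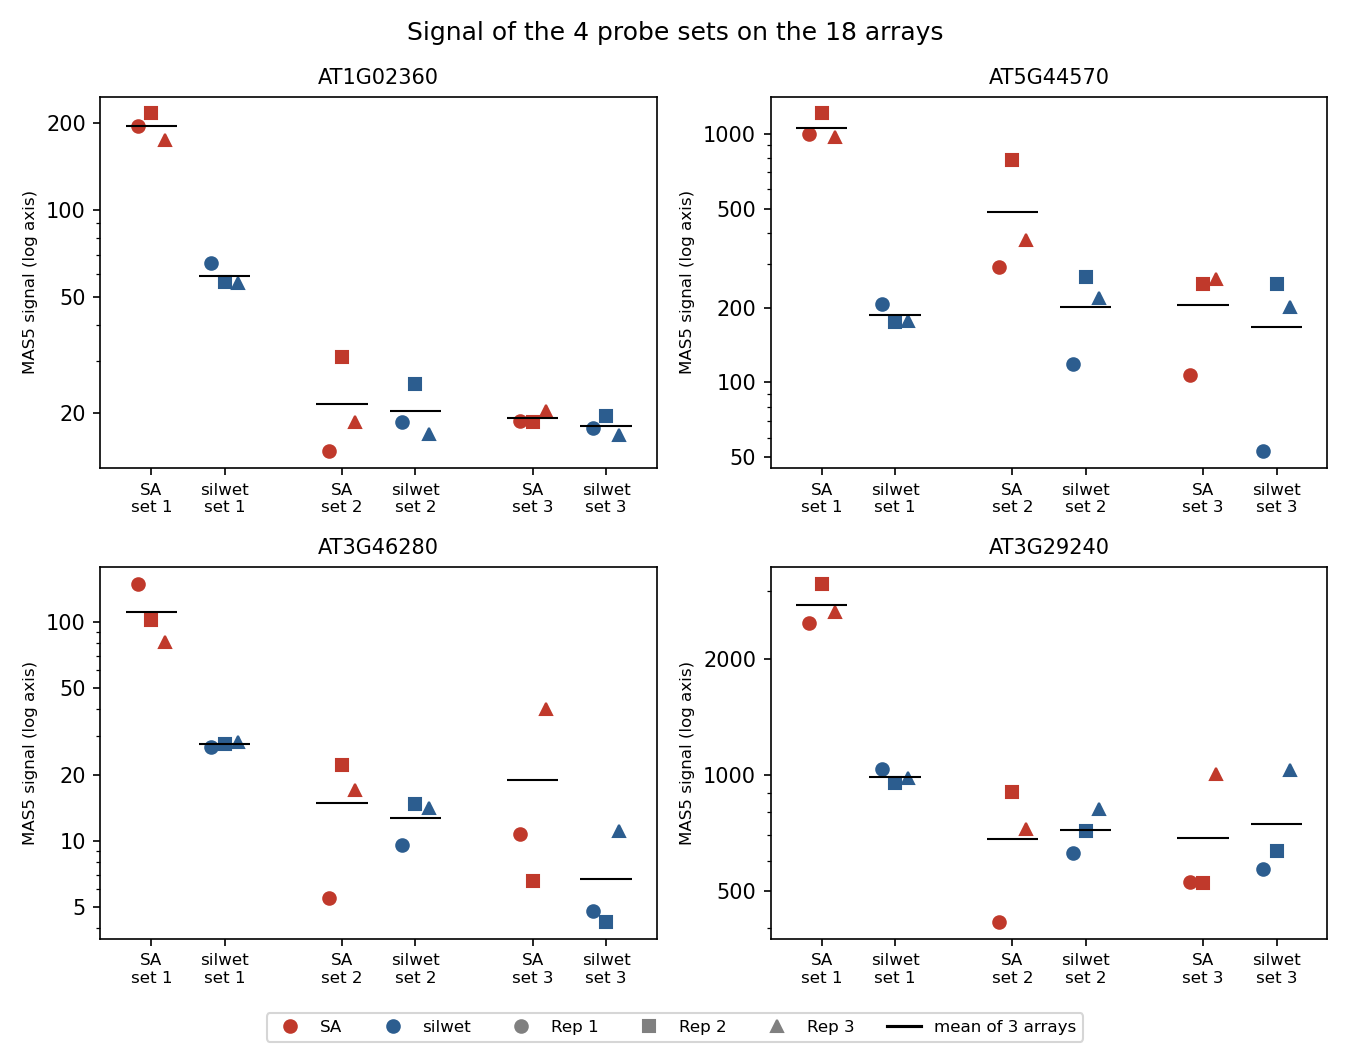
MAS5 signals (log axis) of the 4 probe sets on each array, by title set, with SA (red) left of silwet (blue), the Rep number as the symbol and a bar at the mean of 3 arrays. All 4 genes are highest on the 3 SA arrays of title set 1; AT1G02360 is also higher on the silwet arrays of title set 1 (55.8 to 65.3) than on any array of title sets 2 and 3, whose highest is 31.0.

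Over all 9 arrays of each treatment, AT5G44570 averaged 582 ± 406 with SA and 185 ± 65.4 with silwet (SD, n = 9 each). The means were 48.1 ± 51.0 with SA and 15.7 ± 9.60 with silwet for AT3G46280, 78.3 ± 87.7 with SA and 32.5 ± 20.4 with silwet for AT1G02360, and 1376 ± 1069 with SA and 818 ± 187 with silwet for AT3G29240 (SD). The SA arrays of title set 1 held 60.5% of the summed SA signal of AT5G44570, 76.5% of that of AT3G46280 and 66.9% of that of AT3G29240. Every SA array of title set 1 lay above every silwet array of that set for 4 of 4 genes, against 8.62% of all probe sets, and above the other 15 arrays for 4 of 4, against 5.57%. The rule used these arrays, so nothing is read from these counts.

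SA arrays of title sets 2 and 3 had no part in the choice of the genes, and they were compared with the silwet arrays of the same sets by limma over all 15922 probe sets. The silwet arrays had a part in the choice through their highest signal, which by itself favours a positive difference, so the comparison is not wholly independent. None of the 4 genes passed an adjusted p of 0.05 in title set 2, in title set 3 or over both sets. In these 3 comparisons limma called 0 of 15922 probe sets (0%), with 10.8%, 1.96% and 7.21% of them at an unadjusted p below 0.05. Every SA array lay above every silwet array in title set 2 for 1 of the 4 genes, AT5G44570, and in title set 3 for 0 of the 4, against 7.66% and 3.68% of all probe sets.

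Over title sets 2 and 3 together, AT5G44570 had a log2 difference of 0.83, with a 95% interval from 0.08 to 1.58 (adjusted p = 0.684 by limma). The interval is that of the single probe set and takes no account of the number tested. The difference was 1.21 in title set 2 (adjusted p = 0.450) and 0.46 in title set 3 (adjusted p = 0.991), both by limma, and SA was higher in all 6 pairs of equal Rep number, by 1.71 to 2.97 times in title set 2 and 1.001 to 2.02 times in title set 3. For AT3G46280 the difference over both sets was 0.53 (95% interval -0.24 to 1.297, adjusted p = 0.759 by limma), with SA higher in 5 of 6 pairs. It was 0.05 in title set 2, where leaving out 1 array gave -0.29 (SA 5) to 0.56 (SA 4), and 1.01 in title set 3. Without SA 9 the difference in title set 3 was 0.34 and that over both sets 0.20.

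The chitinase-type gene AT1G02360 had a log2 difference of 0.06 over title sets 2 and 3 (95% interval -0.30 to 0.42, adjusted p = 0.968 by limma). The upper bound corresponds to 1.34-fold in signal + 2, which understates the fold in signal. Signals of this gene in these sets were 14.7 to 31.0, a size at which MAS5 is noisy. For AT3G29240 the difference was -0.14 (95% interval -0.58 to 0.30, adjusted p = 0.918 by limma), an upper bound of 1.23-fold. The SA arrays were above the silwet arrays in 4 of 6 pairs for AT1G02360 and in 1 of 6 for AT3G29240. Whether the SA effect differed between title sets 2 and 3, a contrast added after the data were seen, was tested within the same fit, and the adjusted p ran from 0.755 to 0.998 for the 4 genes (limma, 0 of 15922 called and 684 at an unadjusted p below 0.05).

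**Figure D2:**
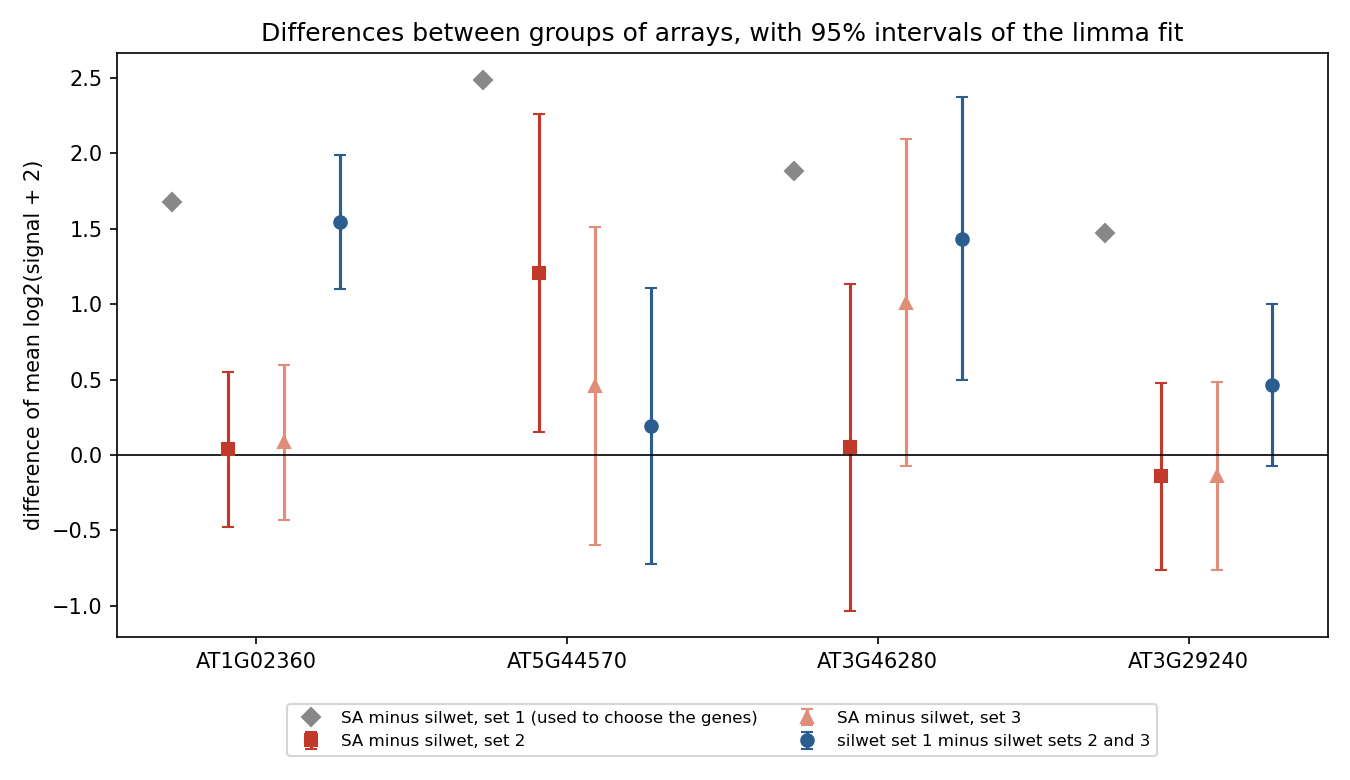
Differences of mean log2(signal + 2) for the 4 genes: SA minus silwet in title sets 1 (grey, used to choose the genes and shown without an interval), 2 and 3, and silwet set 1 minus silwet sets 2 and 3 (blue), with 95% intervals of the limma fit, each not adjusted for the number tested. For AT1G02360 and AT3G29240 the SA differences of title sets 2 and 3 lie between -0.14 and 0.08, while the silwet difference of AT1G02360 is 1.55.

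Among SA arrays alone, title set 2 was compared with title set 3, both of which the rule had not used. AT5G44570 was 1.20 higher in title set 2 (95% interval 0.14 to 2.25, adjusted p = 0.419 by limma). Its signals in the sets were narrowly apart, at 292 on SA 4 against 261 on SA 9. The share of all probe sets with such a gap was not counted. AT1G02360, AT3G46280 and AT3G29240 had differences of 0.09, -0.13 and -0.01, with adjusted p of 0.884, 0.919 and 0.989. Over all 15922 probe sets limma called 1 (0.00628%), with 1879 (11.8%) at an unadjusted p below 0.05. The probe set called, singled out after its value was seen, is unnamed here.

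Silwet arrays of title set 1 set against those of title sets 2 and 3 ask how far the genes differed between the sets without SA. AT1G02360 averaged 59.2 ± 5.28 (SD, n = 3) in silwet set 1, against 19.1 ± 3.14 (SD, n = 6) in silwet sets 2 and 3. Its log2 difference was 1.55 ± 0.21 (SE), higher on 3 of 3 arrays than on any of the 6, with an adjusted p of 0.000556 by limma. By limma 2.62% of all probe sets were higher in silwet set 1, and 3.77% differed in either direction. The rule had used the highest silwet signal of each probe set, but not which title set held it. For AT1G02360 that signal was on silwet 1 (65.3). The rule also asked for high signals on the SA arrays of title set 1, so this comparison is not wholly independent of the choice. Every silwet array of title set 1 was above the 12 arrays of title sets 2 and 3 of both treatments for AT1G02360 alone of the 4 genes, a pattern met by 2.71% of probe sets. Its mean in silwet set 1 was 2.92 times its mean in SA sets 2 and 3.

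AT3G46280 showed a difference of 1.43 ± 0.44 (SE) between the same silwet arrays, with means of 27.6 ± 0.638 (SD, n = 3) and 9.74 ± 4.45 (SD, n = 6), and it did not pass (adjusted p = 0.0879 by limma). The lowest of its 3 signals in silwet set 1, 26.9, was above the highest of the 6, 14.7. All 3 silwet arrays of title set 1 lay above all 6 of the other sets for these 2 genes, AT1G02360 and AT3G46280, against 4.19% of all probe sets. AT3G29240 had a difference of 0.46 (adjusted p = 0.400) and AT5G44570 one of 0.19 (adjusted p = 0.884), and for both the signals of the silwet sets overlapped. The silwet means of the 4 genes thus stood in different ratios. AT5G44570 had nearly the same mean in silwet set 1 as in silwet sets 2 and 3 (1.01 times), AT3G29240 had 1.35 times, AT3G46280 2.83 times and AT1G02360 3.10 times. Whether the genes differed in these ratios was not tested.

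Rep number was tested as a term beside treatment and title set. The rule did not use Rep numbers, but it used signals of SA arrays 1 to 3 and the silwet arrays. The test is therefore not wholly independent of the choice. No gene of the 4 passed, and 4.6% of all probe sets did. AT5G44570 came nearest (adjusted p = 0.0659 by limma's F-test over 18 arrays): it was 0.9996 higher in Rep 2 and 0.68 higher in Rep 3 than in Rep 1, and Rep 1 was lowest in 4 of the 6 groups of 3. AT3G29240 was 0.28 higher in Rep 2 and 0.50 higher in Rep 3 than in Rep 1 (adjusted p = 0.157), with Rep 1 lowest in 4 of the 6 groups. The adjusted p was 0.387 for AT1G02360 and 0.401 for AT3G46280.

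Within each treatment, AT5G44570 was lowest where the GAPDH ratio was lowest. Its lowest signal with SA, 107, was on SA 7, which had the lowest ratio of the SA arrays, 0.767. Among silwet arrays its lowest signals, 52.9 and 119, were on silwet 7 and silwet 4, where the ratio was 0.225 and 0.465. All of these are Rep 1 arrays of title sets 2 and 3. Without silwet 4 and silwet 7 the SA difference over title sets 2 and 3 was 0.32 (adjusted p = 0.733 by limma), against 0.83 with them. The difference in title set 3 turned to -0.22, also when silwet 7 alone was left out. AT3G29240 too had its lowest silwet signals, 569.5 and 628, on silwet 7 and silwet 4. The same ratio for Actin control probe sets was also lowest of the silwet arrays on silwet 7 (0.047) and silwet 4 (0.132). Among SA arrays the Actin ratio was lowest on SA 9 (0.139), where AT5G44570 was at 261, and was 0.147 on SA 7. The part of RNA quality in these values was not tested. In title set 1, which holds neither array, the ratio was 1.12 to 1.26 on SA arrays and 0.940 to 1.05 on silwet arrays.

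**Figure D3:**
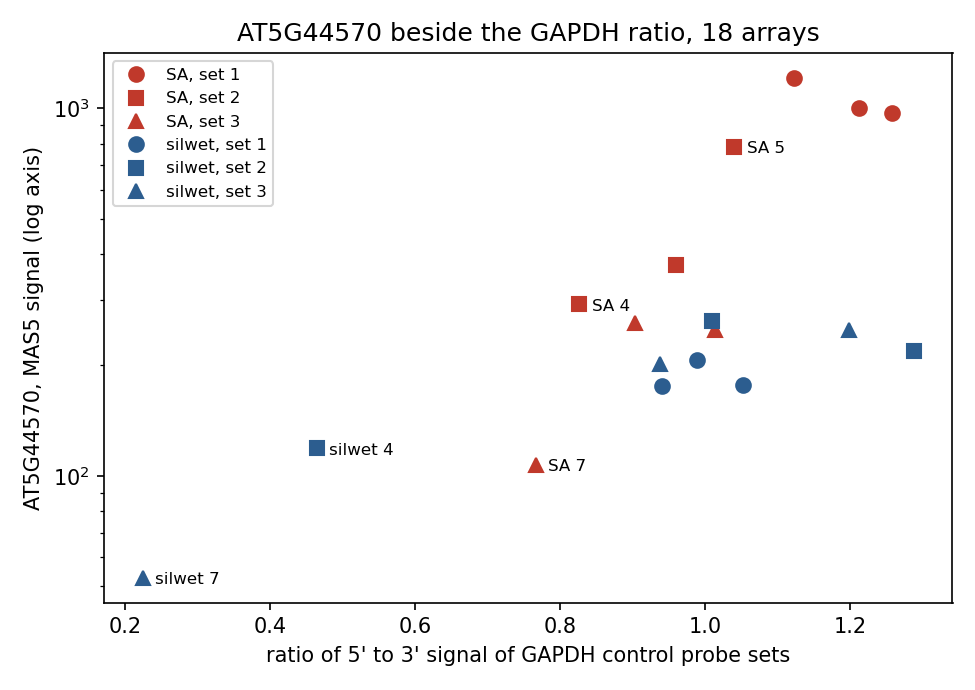
MAS5 signal of AT5G44570 (log axis) beside the GAPDH ratio (5' over 3' signal) of each array, with SA in red, silwet in blue and the title set as the symbol. The SA arrays of title set 1 (969 and above) have ratios of 1.12 to 1.26, and silwet 7 (52.9 at a ratio of 0.225) and silwet 4 (119 at 0.465) stand apart at the low end.

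The genes were also compared by their log2 profiles over the 18 arrays, each centred on its own mean. The measure was the mean absolute difference between 2 profiles, so the size of changes counted as well as their shape. Since all 4 genes were chosen for the same 3 arrays, some likeness is given by the rule. AT1G02360 and AT3G46280 differed by 0.45 on average, AT1G02360 and AT3G29240 by 0.48, and AT3G46280 and AT3G29240 by 0.51. AT5G44570 differed more from the others, by 0.65 from AT3G29240, 0.78 from AT3G46280 and 0.85 from AT1G02360. The median over 8673 other named genes was between 0.74 and 1.14 for the 4 genes.

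Among other named genes, the profile most like that of AT1G02360 was that of AT4G22530, at a mean difference of 0.25. AT4G22530 had means of 557 ± 108 in SA set 1 and 54.0 ± 16.6 in SA sets 2 and 3, and of 209 ± 99.2 in silwet set 1 and 54.8 ± 17.7 in silwet sets 2 and 3 (SD). Next were AT4G17260 at 0.35 and AT3G60420 at 0.36. Silwet set 1 minus silwet sets 2 and 3 was 1.86 for AT4G22530, 2.38 for AT4G17260 and 1.14 for AT3G60420, which is a description, since these genes were picked for a profile that holds this difference. For AT3G46280 the 3 most like were AT4G22530 at 0.45, AT5G09800 at 0.49 and AT4G01870 at 0.50.

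For AT3G29240 the closest profiles were those of AT2G26390 (0.21), AT1G72900 (0.24) and AT3G09010 (0.26). AT2G26390 averaged 164 ± 24.6 in SA set 1 and 42.7 ± 9.47 in SA sets 2 and 3, and 64.2 ± 9.71 in silwet set 1 and 48.3 ± 9.35 in silwet sets 2 and 3 (SD). The nearest profiles of AT5G44570 were those of the chitinase gene AT3G47540 at 0.51, the nitrate transporter gene NRT2.5 at 0.52 and the gibberellin receptor gene GID1B at 0.55.

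Other chitinase genes were taken from a list of 24 loci. Of these, 15 had a probe set naming 1 gene and 8 passed the filter, AT1G02360 among them. None of the other 7 passed in title set 2, in title set 3, over both, or between SA sets 2 and 3. In silwet set 1 against silwet sets 2 and 3, 2 of the 7 were higher and 0 were lower by limma, against 2.62% of all probe sets higher. The median log2 difference of the 7 in this comparison was 0.83, against -0.03 over all probe sets.

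AT2G43620 had the widest silwet difference of the list, 2.01 (adjusted p = 0.00515 by limma), at 371 ± 117 in silwet set 1 and 90.4 ± 23.0 in silwet sets 2 and 3. With SA it averaged 319 ± 145 in title set 1 and 89.7 ± 39.6 in title sets 2 and 3 (all SD). AT4G01700 was 0.999 higher in silwet set 1 (adjusted p = 0.0236 by limma). Its SA signals in title set 1 were 462 to 819, against 262 to 386 with silwet, and in title sets 2 and 3 they were 80.1 to 156, against 130 to 190 with silwet (lowest to highest). In title set 1 the treatments were apart, with a log2 difference of 1.03 ± 0.27 (SE).

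AT3G47540, just outside the limit of the rule, had signals of 338.5 to 396 with SA and 107 to 170.3 with silwet in title set 1, a log2 difference of 1.41 ± 0.31 (SE). It did not pass the silwet comparison, with a difference of 0.30 (adjusted p = 0.647 by limma). The other 4 had smaller or negative SA differences in title set 1. ChiC, a chitinase of another glycosyl hydrolase family, had 0.24, CHI 0.16, AT2G43610 0.08 and AT2G43590 -0.94. Their silwet differences did not pass, with adjusted p of 0.0685, 0.129, 0.881 and 0.0586 by limma. CHI had lower means in title set 1 than in title sets 2 and 3, at 380.7 ± 79.1 in SA set 1 and 823 ± 131 in SA sets 2 and 3, and at 429 ± 346 in silwet set 1 and 698 ± 118 in silwet sets 2 and 3 (SD).

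**Figure D4:**
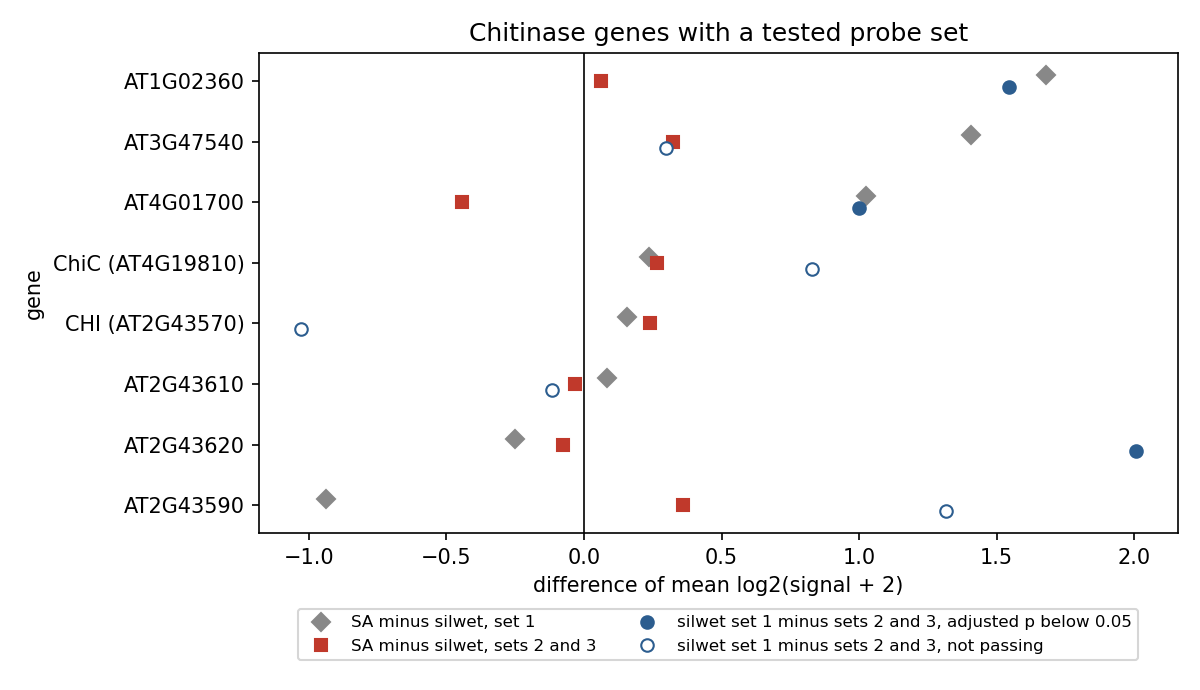
Differences of mean log2(signal + 2) for the 8 chitinase genes with a tested probe set: SA minus silwet in title set 1 (grey) and in title sets 2 and 3 (red), and silwet set 1 minus silwet sets 2 and 3 (blue, filled where the adjusted p of limma was below 0.05). AT1G02360 has the highest grey value, 1.68, and AT1G02360, AT4G01700 and AT2G43620 have filled points at 1.55, 0.999 and 2.01.

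Listed as relatives of AT3G46280 were 21 receptor kinase genes of the malectin type. Of these 15 had a probe set naming 1 gene, and only AT3G46340 and AT1G51890 passed the filter. Neither passed any tested comparison of treatments or title sets. AT3G46340 averaged 14.98 ± 3.12 in SA set 1 and 12.9 ± 1.47 in silwet set 1, and 15.1 ± 3.66 in SA sets 2 and 3 and 15.4 ± 3.87 in silwet sets 2 and 3 (SD). AT1G51890 averaged 201 ± 27.4 in SA set 1 and 104 ± 60.5 in silwet set 1, and 34.5 ± 17.3 in SA sets 2 and 3 and 52.8 ± 31.5 in silwet sets 2 and 3 (SD). Its silwet difference was 0.95 (adjusted p = 0.343 by limma). The list of relatives of AT3G29240 held 2 loci, of which AT1G33780 was tested. It ran the other way, at 127 ± 15.3 in SA set 1 and 203 ± 38.2 in silwet set 1 (SD). It passed no tested comparison of treatments or title sets.

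Genes next to the 4 on the chromosome, or in their region, were looked at where they had a tested probe set. Within 2 protein-coding genes of AT5G44570 or AT3G46280, no gene had one. AT1G02370, the protein-coding gene following AT1G02360 in the gene table, averaged 32.5 ± 10.002 in SA set 1 and 31.9 ± 6.90 in silwet set 1 (SD). AT3G29230, which precedes AT3G29240, had 116 ± 14.8 in SA set 1 and 76.5 ± 21.9 in silwet set 1. From the region of AT5G44570 the gene AT5G44580 had 42.6 ± 4.79 in SA set 1 and 75.2 ± 20.6 in silwet set 1, and VPS2.2 had 14.7 ± 7.37 in SA set 1 and 14.2 ± 11.3 in silwet set 1 (SD, n = 3 each). None of these neighbours and genes of the region passed a tested comparison of treatments or title sets.

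Of 24 genes of the SA response, 5 had a probe set naming 1 gene, CHI of the chitinase list among them, and all 5 passed the filter. None passed in title sets 2 or 3, and UGT76B1 alone was higher in silwet set 1 than in silwet sets 2 and 3, by 1.999 (adjusted p = 0.00616 by limma). UGT76B1 had 1438 ± 108 in SA set 1 and 124 ± 62.8 in silwet set 1, and 62.2 ± 45.9 in SA sets 2 and 3 and 35.8 ± 29.3 in silwet sets 2 and 3 (SD). GRX480, a glutaredoxin gene, had 756 ± 62.3 in SA set 1 and 428 ± 218 in silwet set 1, and 209 ± 85.4 with SA and 207 ± 93.6 with silwet in title sets 2 and 3 (SD). Of the other 3, CHI is given above, and WRKY53 and RING1 are named after their values were seen. WRKY53 had 551 ± 124 in SA set 1 and 228 ± 61.4 in silwet set 1, and 96.3 ± 32.6 in SA sets 2 and 3 and 125 ± 32.4 in silwet sets 2 and 3 (SD). RING1 had nearly level means, at 581 ± 121 in SA set 1 and 534 ± 32.2 in silwet set 1, and 571 ± 82.1 in SA sets 2 and 3 and 587 ± 147 in silwet sets 2 and 3 (SD).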

How the data were processed

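The authors deposited 1 intensity per probe set and array, made with MAS5 per the submitters' processing notes (version: not given in the sources used here). Deposited intensities were linear, with a mean of 100 per array once the lowest and highest 2% were trimmed, which hides any shift common to most transcripts. Signals were analysed as log2(signal + 2), leaving out 64 control probe sets and the lowest 30% of the rest by mean. limma 3.58.1 in R 4.3.3 (lmFit, eBayes with an intensity trend) fitted 1 mean per treatment and title set, 3 arrays each, over all 18 arrays; p-values are two-sided and Benjamini-Hochberg adjusted over 15922 probe sets. The script was tested on simulated data. The number of arrays limits precision.

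Genes were named through the platform annotation, updated to the TAIR10.1 gene table: 13513 probe sets had 1 gene, 503 several and 8794 none here. Coordinates served only to order the gene table for the neighbours of the 4 genes, and no sequences were used. Members and lists were chosen with earlier results of these data known. Named were the 4 genes, the 3 most like each, tested genes of the lists, UGT76B1 and GRX480 of the SA list (its other genes were added after their values were seen), and genes beside the rule's limit; the leaf and root markers served to check the tissue.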

Additional observations from a re-analysis of the deposited data

Results flagged for a closer look

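AT5G44570 on silwet 7 stood apart from the other silwet arrays: its signal was 52.9, against 119 to 264 on the other 8. On the log2 scale its gap to the next array was 0.499 of the range of the 9, against a limit of 0.493. Of 8 groups of 9 arrays looked at, this was the only one set apart. Chance sets apart about 1 in every 20 groups looked at. Silwet 7 also had the lowest GAPDH ratio, 0.225.

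Paired by Rep number, SA and silwet signals of AT3G29240 stood in opposite order in 2 title sets. SA was higher in all 3 pairs of title set 1, by at least 2.40 times. It was lower in all 3 pairs of title set 3, at 0.826 to 0.981 times. Unpaired, the treatments overlapped in title set 3, at 525 to 1009 with SA and 569.5 to 1029 with silwet. There the log2 difference was -0.14 (adjusted p = 0.991 by limma), and its sign turned in 3 of 27 alternative fits. Title set 1 was used to choose the gene, and the difference between the sets was not tested.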

How the results depend on the processing

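In title set 2 limma called 1 probe set after quantile normalization, and 0 to 1 with 1 array left out. Between SA sets 2 and 3 it called 0 with median centring and 0 to 2 with 1 array left out (0 without any 1 of 11 arrays: silwet 3, 5 or 8, or any SA array but SA 4; 2 without silwet 6). For silwet set 1 it called 1041 with the replicate block (the Rep number), 161 with only the silwet arrays in the fit, and 194 to 880 with 1 array left out, the lowest without silwet 2, then 368 without silwet 3. For Rep number it called 317 without the filter, 388 without the trend, 0 without silwet 4 and silwet 7 (RNA quality and Rep number share these arrays), and 7 to 1567 with 1 array left out: 7 without silwet 4, 82 without silwet 7, 1567 without SA 9, and 150 to 358 without any other silwet array or SA 1, 2, 3, 6 or 8. The difference of the SA effect between title sets 2 and 3 had 0 to 1 calls with 1 array left out (1 without silwet 4). The cause of these moves was not tested. Median centring moved the median over all probe sets to 0.14 in title set 2, 0.18 between SA sets 2 and 3, and 0.21 for the difference of the SA effect, from values between -0.08 and -0.02.

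AT1G02360 kept its call in silwet set 1 under all 27 alternatives (log2 difference 1.10 to 1.62, adjusted p up to 0.0141). AT3G46280 passed there without SA 9 (adjusted p = 0.0316), and its range was up to 0.255. For Rep number AT5G44570 passed without silwet 1 (adjusted p = 0.0412; 0.0412 to 0.283 over the alternatives) and AT3G29240 after quantile normalization (adjusted p = 0.0406; 0.0406 to 0.721), all by limma. With the lowest 50% left out AT3G46280 was not tested. Of the 9 pairs of SA and silwet arrays of equal number, 8 had deviations from their group means that correlated above 0.1 (0.02 to 0.53, median 0.30), as did 31 of all 45 pairs of equal Rep number (median 0.19). Pairing was taken only where every pair lay above 0.1 or the labels gave it, so the fit without the block was kept, and a pairing is not excluded. The replicate block, whose Rep number terms are shared by all title sets, changed no call of the 4 genes. The 9 pairs within title sets were not fitted.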
